A study of Mus musculus with 18 samples.

Results

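Germ cells guard their genome against transposons with small RNAs called piRNAs. This report describes 10 genes of that pathway, and of the germ granule in which much of it is housed, in the ovaries of young mice. The genes were taken by symbol as a fixed list: Ddx4, Mael, Tdrd1, Tdrd9, Tdrkh, Piwil2, Mov10l1, Asz1, Pld6 and Henmt1. All 10 were found among the 30172 genes of the files, and all 10 passed the filter on low values in every comparison.

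The ovaries came from F1 females, the daughters of C57BL/6J dams fed a high-methionine diet (3% methionine, F1-HHcy) or ordinary chow (F1-Control, 0.67% methionine). The high-methionine diet induces hyperhomocysteinemia (HHcy), a raised level of homocysteine in the blood. It began at 3 weeks of age of the dams and went on through gestation and lactation. Before mating it was given for 4 weeks by the labels and for 6 weeks by the study's methods. The F1 pups themselves were wild type and met the diet through the dam. Whether they also ate it directly before Pd21 is not given in the sources used here. Whole ovaries were taken on day 3 after birth (Pd3), on day 7 (Pd7) and on day 21 (Pd21), with 3 libraries per diet and day, 18 in all. Whether a library holds 1 pup or several, and whether the pups of a group were littermates, is not given in the sources used here, so p-values measure only the spread between these libraries. By the labels, batch 1 held the 2 earlier days and batch 2 held Pd21, so each comparison of diets lies within a batch, while age and batch cannot be told apart for Pd21.

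As background, piRNAs are cut from long single-stranded precursors and loaded into PIWI proteins, which then find and silence transposon transcripts. Much of this takes place in nuage, the electron-dense granules of germ cells that lie against mitochondria, where Tudor domain proteins hold the PIWI proteins and RNA helicases together. Oocytes of primordial follicles, the resting reserve of the ovary, are rich in such proteins, and the pathway is best known from the male germ line, in which the loss of most of these genes causes sterility. Only polyadenylated RNA was sequenced here, so the values concern the mRNAs of the pathway and not the piRNAs themselves.

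The members fall into 4 kinds. Ddx4 (the mouse vasa homologue, also MVH) and Mov10l1 are RNA helicases, the first a standard marker of germ cells and the second a factor that binds piRNA precursors. Piwil2 (MILI) is the PIWI protein, and Tdrd1, Tdrd9 and Tdrkh are Tudor proteins that bind PIWI proteins. Asz1 (GASZ) and Pld6 (the zucchini nuclease) sit in the outer mitochondrial membrane. Henmt1 methylates the ends of finished piRNAs, and Mael is a nuage protein needed for transposon silencing.

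The genes lie on 9 chromosomes of build GRCm38.p6 by RefSeq, with Tdrkh (94413243 to 94434854) and Henmt1 (108939454 to 108979885) both on the plus strand of chromosome 3. Ddx4 spans chr13:112598333-112652633, Mael chr1:166201385-166238744, Piwil2 chr14:70372477-70436898, Asz1 chr6:18050964-18109061 and Pld6 chr11:59783893-59787657, all on the minus strand. Tdrd1 (chr19:56826171-56870012), Tdrd9 (chr12:111971488-112068854) and Mov10l1 (chr15:88982891-89055152) lie on the plus strand. In the GENCODE vM21 annotation, 2255 exonic bases of Tdrkh also belong to exons of Oaz3 on the opposite strand, and 392 exonic bases of Henmt1 to Gm9857 on the opposite strand. The libraries kept strand, but the strand setting of the counting is not given in the sources used here, so the values of these 2 members are less certain than those of the other 8, which share no exonic base with another gene.

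RefSeq's promoter windows (250 bases before to 50 after a listed start, GRCm38.p6) held 9 of the 10 members, all but Piwil2, in 12 windows. They are shown because a shared hexamer was found in most of them. The 6-letter palindrome CACGTG, the canonical E-box, stood in the windows of 6 of the 9 genes. By window this was 7 of 12, beside 7.15% of all 32851 windows. Overlapping windows of Tdrd1 held the same copy, and another window of Tdrd1 and another of Pld6 did not hold it. It holds a CG pair, and the members' windows are rich in CG, with 10 or more pairs in 11 of the 12 against a median of 7 over all windows. Among the 14281 windows with 10 or more CG pairs, 10.9% held CACGTG. The stretches below run toward the start, with CACGTG in capitals.
Ddx4, chr13:112652322-112652351, minus strand: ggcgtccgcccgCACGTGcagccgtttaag
Pld6, chr11:59787658-59787717, minus strand: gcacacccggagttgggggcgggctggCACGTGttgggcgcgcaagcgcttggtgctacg
Tdrd1, chr19:56826149-56826208, plus strand: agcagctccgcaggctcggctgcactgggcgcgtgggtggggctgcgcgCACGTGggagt
Tdrd9, chr12:111971437-111971496, plus strand: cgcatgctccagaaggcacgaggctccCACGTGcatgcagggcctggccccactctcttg
Mael, chr1:166238935-166238994, minus strand: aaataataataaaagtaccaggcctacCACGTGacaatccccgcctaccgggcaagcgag
Mov10l1, chr15:88982744-88982803, plus strand: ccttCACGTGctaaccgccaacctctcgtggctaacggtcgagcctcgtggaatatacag

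The nearest hexamer began 11 bases before the listed start in Tdrd1, 29 in Ddx4, 33 in Pld6 and 95 in Tdrd9. In Mael it began 223 bases before the start and in Mov10l1 246. The window of Tdrd9 held 2 copies before its start, of which the nearer is shown. The Ddx4 stretch overlaps an exon of GENCODE and is therefore given as 30 bases only. For contrast, the last 60 bases before the listed starts of 2 members without CACGTG in their window read as follows.
Asz1, chr6:18109062-18109121, minus strand: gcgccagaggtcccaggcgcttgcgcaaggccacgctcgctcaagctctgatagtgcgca
Tdrkh, chr3:94413184-94413243, plus strand: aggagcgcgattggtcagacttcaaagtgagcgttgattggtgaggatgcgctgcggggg

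The remaining member without it was Henmt1, whose listed start lies inside the gene (position 108940557 of chromosome 3). The listed starts of Ddx4, Tdrd1, Tdrd9 and Mov10l1 used for the distances above also lie inside the gene. In all, 11 short motifs were searched on both strands, chosen with the expression values known, and CACGTG is the one of them described for that reason without a test. Of the others, TCACGTGA, which holds the hexamer, stood in the windows of 0 of the 9 genes and 0.974% of all windows. GGCGGGA stood in 2 of 9 (Ddx4 and Mael) and 11.3% of windows, or 23.4% of the windows with 10 or more CG pairs, and GGGCGG in 7 of 9 and 35.7%, or 69.8% of those windows. CAGCTG stood in 4 of 9 and 16.3% of all windows, CCAAT in 6 of 9 and 37.4%, AACTG in 3 of 9 and 44.8%, and CAACNG in 1 of 9 and 35.0%. TAATTA stood in 0 of 9 and 5.29%, TAATTG in 1 of 9 (Tdrkh) and 8.00%, and TGACGTCA in 0 of 9 and 1.79%. A match describes letters and is not a bound site.

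Before the values, the libraries are described. Each held between 33630304 and 39398922 fragments on genes, and a member had between 80 (Pld6, F1-Control Pd21 replicate 1) and 8730 fragments (Tdrd1, F1-Control Pd3 replicate 1) in a library. Foxl2, a granulosa cell factor that marks ovary, lay between 45.7 and 195 FPKM over the 18 libraries (FPKM is a fragment count scaled for gene length and library depth), and no library lacked it. Some libraries stood nearer to another group than to their own. By the mean chi-square per gene, the nearest library to F1-HHcy Pd3 replicate 1 was F1-Control Pd7 replicate 3, and to F1-HHcy Pd3 replicate 2 it was F1-Control Pd7 replicate 1, whereas F1-HHcy Pd3 replicate 3 was nearest to F1-Control Pd3 replicate 3. F1-HHcy Pd7 replicate 3 was nearest to F1-HHcy Pd3 replicate 1, F1-HHcy Pd21 replicate 1 to F1-HHcy Pd7 replicate 3, and F1-HHcy Pd21 replicate 3 to F1-Control Pd21 replicate 2. F1-Control libraries did so too. F1-Control Pd7 replicate 1 was nearest to F1-HHcy Pd3 replicate 2, and F1-Control Pd7 replicate 3 to F1-HHcy Pd3 replicate 1. F1-Control Pd21 replicate 2 was nearest to F1-HHcy Pd21 replicate 3. No pair of libraries was the same within sampling noise. For this reason most counts of members below are also given without single libraries.

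In F1-Control ovaries at Pd3, Mael had the highest level per length and Henmt1 the lowest. The mean was 84.3 ± 14.2 FPKM (SD, n = 3) for Mael, 40.7 ± 3.94 for Tdrd1, 30.7 ± 3.25 for Piwil2, 27.2 ± 1.57 for Mov10l1, 22.7 ± 0.856 for Tdrd9, 21.1 ± 0.664 for Ddx4, 18.1 ± 1.97 for Asz1, 6.86 ± 0.911 for Pld6, 4.44 ± 0.409 for Tdrkh and 2.55 ± 0.439 for Henmt1. In that order, Piwil2 and Mov10l1 were the only neighbours whose libraries overlapped. By Pd21 the order had turned, with Tdrd1 (13.1 ± 1.16 FPKM) and Mael (11.9 ± 1.54) overlapping at the top, Asz1 (6.71 ± 2.17), Henmt1 (6.60 ± 1.68) and Ddx4 (5.47 ± 2.07) overlapping behind them, and Mov10l1 (1.25 ± 0.673) last and overlapping with Pld6 (1.57 ± 0.367).

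**Figure D1:**
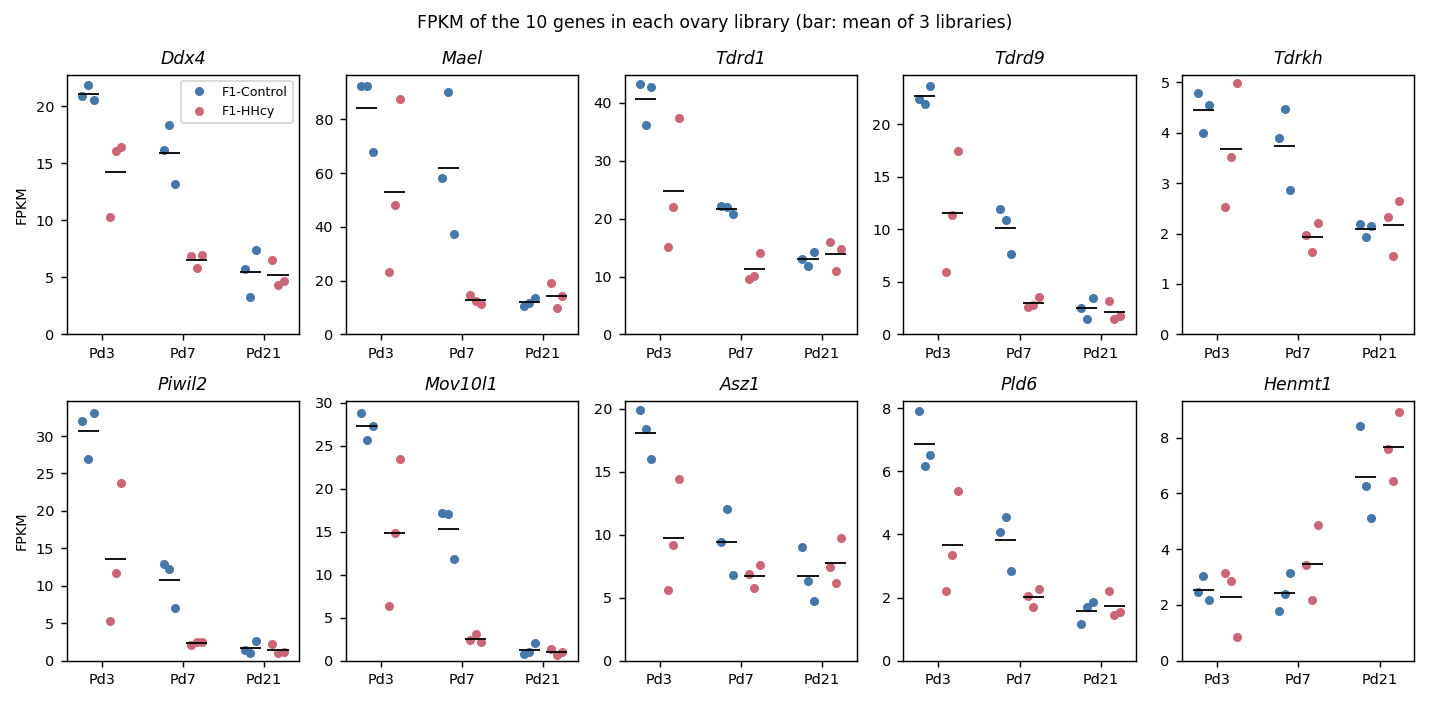
FPKM of each of the 10 genes (vertical axis, linear and starting at 0) in every library at Pd3, Pd7 and Pd21, with F1-Control in blue, F1-HHcy in red and the mean of 3 libraries as a bar. At Pd7 the F1-HHcy points of 8 genes lie below all 3 F1-Control points, at Pd21 the diets overlap in all 10 panels, and Henmt1 is the only gene whose points stand highest at Pd21.

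The genes did not keep step over the first 3 weeks of life. As a percent of the F1-Control mean at Pd3, the F1-Control mean at Pd21 was 4.60% for Mov10l1 and 5.46% for Piwil2, 10.9% for Tdrd9, 14.1% for Mael, 22.9% for Pld6, 25.9% for Ddx4, 32.0% for Tdrd1, 37.1% for Asz1 and 47.1% for Tdrkh. Henmt1 stood at 259%. Its F1-Control libraries held 2.45, 3.02 and 2.16 FPKM at Pd3, 1.78, 2.39 and 3.16 FPKM at Pd7 and 8.43, 6.27 and 5.11 FPKM at Pd21. Thus Henmt1 was the member with higher values at Pd21 than at both earlier days in every library. Mov10l1 and Piwil2 had the lowest remaining shares. Which cells of the ovary held the Henmt1 mRNA was not tested. These values from Pd21 are a description, since age and batch cannot be told apart there. In whole ovary, fewer germ cells and less RNA per germ cell cannot be told apart either, here and in every result that follows.

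**Figure D2:**
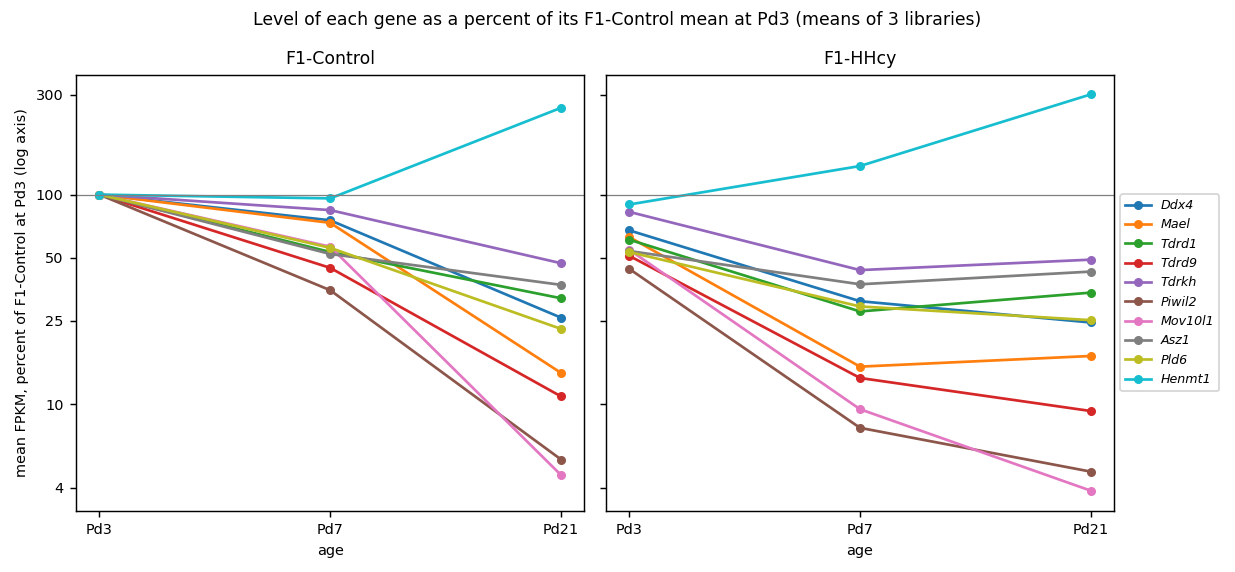
Mean FPKM of each gene at Pd3, Pd7 and Pd21 (horizontal axis) as a percent of its F1-Control mean at Pd3 (vertical axis, log scale), F1-Control at left and F1-HHcy at right, each point the mean of 3 libraries. In F1-Control, Mov10l1 is at 56.4% at Pd7 and 4.60% at Pd21, while in F1-HHcy it is already at 9.48% at Pd7.

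Between Pd3 and Pd7, both in batch 1, the change could be tested. A gene was called when limma's unadjusted p was under 0.05 and the log2 difference exceeded 0.58 in size, the criterion printed above the study's volcano plots, on the scale of log2(FPKM + 1). In F1-Control, 6 of the 10 members fell, and 0 rose, against 7.28% of 13998 genes called lower and 7.08% called higher. By adjusted p, 4 members fell, against 4.67% of genes. Piwil2 fell the furthest, by 1.47 on the log2 scale (SE 0.370, adjusted p = 0.0272), followed by Tdrd9, which fell by 1.11 (SE 0.274, adjusted p = 0.0257). Asz1 (−0.90), Tdrd1 (−0.88), Mov10l1 (−0.80) and Pld6 (−0.72) also fell, the first pair with an adjusted p under 0.05. The log2 differences of Mael (−0.52), Ddx4 (−0.40), Tdrkh (−0.21) and Henmt1 (−0.06) did not meet the criterion. The members' median was −0.76 beside −0.06 over all genes tested. With 1 library left out, the count that fell ran from 4 (without F1-Control Pd7 replicate 3) to 6.

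In F1-HHcy ovaries, 7 of the 10 fell between the same days, and 0 rose, against 6.19% of genes called lower and 5.97% called higher. By adjusted p, 6 members fell, against 2.11% of genes. Mov10l1 fell by 1.99 (SE 0.321, adjusted p = 0.0142), Piwil2 by 1.90 (SE 0.370, adjusted p = 0.0223), Mael by 1.79 (SE 0.392, adjusted p = 0.0307) and Tdrd9 by 1.54 (SE 0.274, adjusted p = 0.0188). Tdrd1 and Ddx4 fell by 1.00 and 0.99, and Tdrkh by 0.64. Pld6 lay just inside the size limit at −0.58, and the differences of Asz1 (−0.39) and Henmt1 (0.49) did not meet the criterion. The members' median was −0.99 beside −0.04 over all genes. With 1 library left out, the count that fell ran from 6 to 9 (without F1-HHcy Pd3 replicate 1).

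The question of the study's RNA-seq was how the maternal diet alters the ovary before puberty. At Pd3, 6 of the 10 members were lower in F1-HHcy ovaries than in F1-Control ovaries and 0 were higher, against 4.74% of 13277 genes called lower and 664 of them called higher. The 6 were Piwil2, Tdrd9, Mov10l1, Asz1, Pld6 and Tdrd1. By limma 0 of the 10 had an adjusted p under 0.05, where 1.26% of genes were called lower by that rule, 7 had an unadjusted p under 0.05, and limma-voom on the recovered fragments also called 6 by the unadjusted criterion. The members' median log2 difference was −0.82, beside −0.03 over all genes tested.

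Piwil2 showed the widest gap. Its F1-Control libraries held 32.0, 27.0 and 33.1 FPKM and its F1-HHcy libraries 5.28, 11.7 and 23.8 FPKM. The groups did not overlap, and the F1-HHcy values spread over a wide range, with replicate 3 near the controls. The log2 difference was −1.33 (SE 0.431, adjusted p = 0.132). Tdrd9 held 22.4, 22.0 and 23.6 FPKM in F1-Control and 5.98, 11.3 and 17.5 FPKM in F1-HHcy, again without overlap and with replicate 3 the highest (log2 difference −1.02, SE 0.311, adjusted p = 0.116).

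Mov10l1 followed the same order of libraries, with 28.8, 25.6 and 27.2 FPKM in F1-Control and 6.35, 14.8 and 23.4 FPKM in F1-HHcy (log2 difference −0.99, SE 0.381, adjusted p = 0.185). Asz1 and Pld6 lay at 53.8% and 53.2% of their F1-Control means, with log2 differences of −0.91 (SE 0.282) and −0.81 (SE 0.244) and no overlap. Tdrd1 was called at −0.78 (SE 0.283), although its highest F1-HHcy library (37.4 FPKM) lay above its lowest F1-Control library (36.2 FPKM).

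The germ cell marker Ddx4 fell just short of the size limit. It held 20.9, 21.9 and 20.6 FPKM in F1-Control and 10.3, 16.1 and 16.4 FPKM in F1-HHcy, and these groups did not overlap (log2 difference −0.56, SE 0.175, adjusted p = 0.122). Mael held 92.5, 92.4 and 67.8 FPKM in F1-Control and 23.1, 48.3 and 87.4 FPKM in F1-HHcy. Its groups overlapped through F1-HHcy replicate 3, and its difference of −0.84 (SE 0.418) did not meet the criterion. The values for Tdrkh (−0.25, SE 0.201) and Henmt1 (−0.19, SE 0.301) did not either. F1-HHcy libraries lay below all F1-Control libraries in 6 of the 10 members, against 16.1% of all genes.

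At Pd3 the count leaned on single libraries. It was 3 of 10 without F1-HHcy replicate 1, the library with the lowest values of most members, 3 of 10 without F1-Control replicate 3, and 8 of 10 without F1-HHcy replicate 3. Henmt1 went against the rest in replicate 3, which held 0.869 FPKM of it, the lowest of all 18 libraries, beside 3.14 and 2.84 FPKM in replicates 1 and 2.

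At Pd7, 8 of the 10 members were lower in F1-HHcy ovaries and 0 were higher, against 7.35% of 13299 genes called lower and 9.06% called higher. All 8 had an adjusted p under 0.05, where 5.48% of genes were called lower by that rule, and in all 8 the F1-HHcy libraries lay below every F1-Control library, as they did in 19.5% of genes. The members' median log2 difference was −1.03, beside −0.0015 over all genes. Asz1 and Henmt1 were the 2 members that did not meet the criterion.

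Mov10l1 showed the largest difference. It held 17.2, 17.1 and 11.8 FPKM in F1-Control ovaries and 2.47, 3.09 and 2.18 FPKM in F1-HHcy ovaries, 0.168 times the F1-Control mean (log2 difference −2.18, SE 0.183, adjusted p = 0.00102). Mael held 58.2, 90.0 and 37.2 FPKM in F1-Control and 14.8, 12.3 and 11.2 FPKM in F1-HHcy, 0.206 times the F1-Control mean (log2 difference −2.11, SE 0.270, adjusted p = 0.00312). Both were tight in F1-HHcy, and the spread of Mael lay in the F1-Control libraries, of which replicate 3 was the lowest.

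Piwil2 held 12.9, 12.3 and 7.03 FPKM in F1-Control and 2.12, 2.54 and 2.45 FPKM in F1-HHcy (log2 difference −1.76, SE 0.214, adjusted p = 0.00268). Among the Tudor genes, Tdrd9 went from 11.9, 10.8 and 7.65 FPKM in F1-Control to 2.65, 2.85 and 3.59 FPKM in F1-HHcy (−1.45, SE 0.187, adjusted p = 0.00312). Tdrd1 held 22.2, 22.0 and 20.8 FPKM in F1-Control and 9.60, 10.1 and 14.1 FPKM in F1-HHcy (−0.90, SE 0.162, adjusted p = 0.00939). Tdrkh was lower at 0.518 times its F1-Control mean, beside 0.521 times for Tdrd1 (−0.68 on the log2(FPKM + 1) scale, which understates the change of a gene at such low levels, SE 0.175, adjusted p = 0.0360).

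Ddx4 held 16.2, 18.4 and 13.2 FPKM in F1-Control and 6.84, 5.85 and 6.95 FPKM in F1-HHcy, 0.411 times the F1-Control mean (log2 difference −1.16, SE 0.159, adjusted p = 0.00382). The zucchini gene Pld6 was lower by a log2 difference of −0.67 (SE 0.179, adjusted p = 0.0412), with 4.08, 4.56 and 2.84 FPKM against 2.05, 1.71 and 2.27 FPKM. Asz1, its neighbour in the mitochondrial membrane, held 9.44, 12.0 and 6.79 FPKM against 6.89, 5.80 and 7.57 FPKM, and these groups overlapped (−0.40, SE 0.200, adjusted p = 0.197). Henmt1 held 1.78, 2.39 and 3.16 FPKM against 3.43, 2.17 and 4.85 FPKM, also overlapping (0.36, SE 0.239, adjusted p = 0.327). The count at Pd7 lay between 6 and 9 of 10 when any 1 library was left out. Without F1-Control replicate 2, Tdrkh (−0.57) and Pld6 (−0.56) came to lie just inside the size limit. All 6 members with CACGTG in their promoter window were among the 8 called lower, as was Piwil2, which had no window. Of the 3 members without it, Tdrkh was called and Asz1 and Henmt1 were not. The motif was chosen with these values known, so this is only a description of 9 genes and was not tested.

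**Figure D3:**
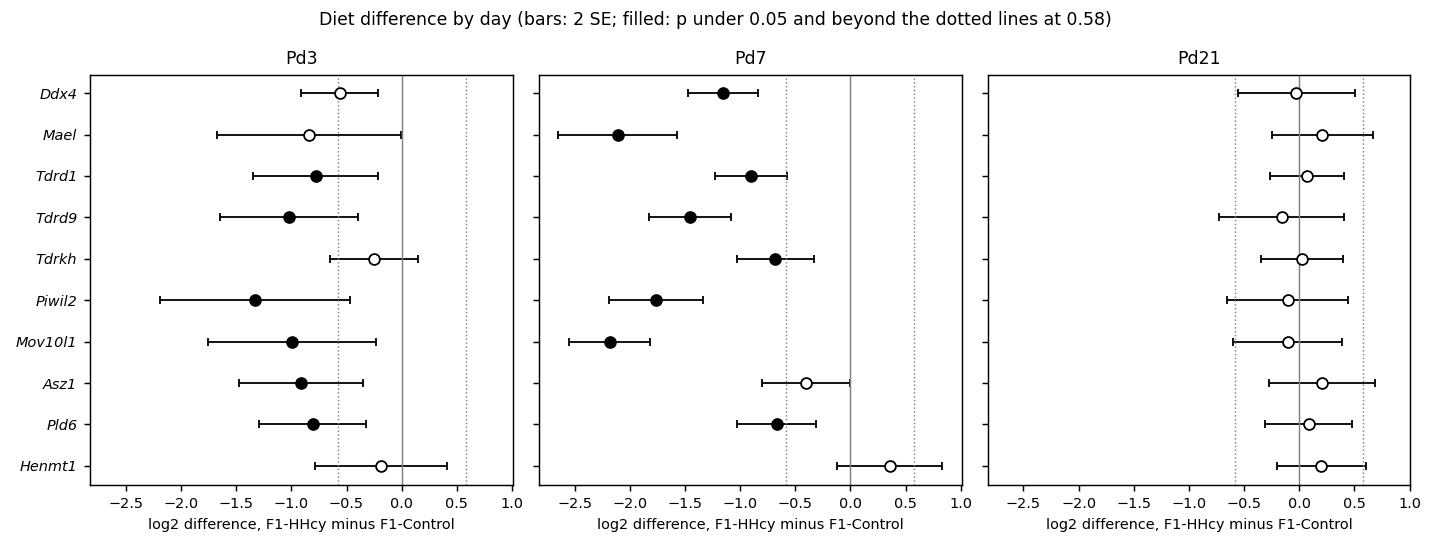
Log2 difference of F1-HHcy minus F1-Control (horizontal axis, scale of log2(FPKM + 1)) for each of the 10 genes at Pd3, Pd7 and Pd21, with bars of 2 SE on either side, dotted lines at 0.58 and filled points for genes called. At Pd7 the values run from −2.18 for Mov10l1 to 0.36 for Henmt1, and at Pd21 all 10 lie between −0.16 and 0.21.

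At Pd21, 0 of the 10 members were called in either direction, where 5.06% of 13350 genes were called lower and 0.0824% higher. By limma, 0 of the 10 had an unadjusted p under 0.05, limma-voom also called 0, and all 10 overlapped between the diets, where 8.61% of genes did not overlap with F1-HHcy lower and 1.92% with F1-HHcy higher. The members' median was 0.05, beside −0.01 over all genes. The log2 differences lay between −0.16 (Tdrd9, SE 0.283) and 0.21 (Mael, SE 0.229). Ddx4 held 5.75, 3.27 and 7.37 FPKM in F1-Control and 6.54, 4.31 and 4.70 FPKM in F1-HHcy. Mael held 10.5, 11.6 and 13.6 FPKM against 19.0, 9.77 and 14.2 FPKM. Over the 10 members, limits of 2 SE on either side ran from −0.72 (Tdrd9) to 0.68 (Asz1). Differences of the size seen at Pd7 in Mael, Tdrd9, Ddx4 and Tdrd1 lay outside these limits. Mov10l1 (1.25 ± 0.673 FPKM in F1-Control at Pd21) and Piwil2 (1.67 ± 0.844 FPKM) were too low for differences of their Pd7 size on the scale of log2(FPKM + 1). For Mov10l1 and Piwil2 the limits therefore do not bear on differences of that size on this scale. As ratios of means, F1-HHcy stood at 0.842 and 0.875 times F1-Control at Pd21, beside 0.168 and 0.221 times at Pd7.

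Whether the diet difference itself changed with age was tested as an interaction, in fits that share the libraries of both diets with the comparisons above. From Pd3 to Pd7 the difference grew more negative in 3 members, and more positive in 0, against 5.63% of genes called lower and 5.98% called higher in this test. These were Mael (by −1.27, SE 0.554, adjusted p = 0.276), Mov10l1 (by −1.19, SE 0.455, adjusted p = 0.228) and Ddx4 (by −0.59, SE 0.240, adjusted p = 0.248), and none passed after adjustment, where 0.357% of genes did. The number ran from 0 without F1-Control Pd7 replicate 2 to 6 without F1-HHcy Pd3 replicate 1, and was 1 without F1-HHcy Pd3 replicate 2 or 3, F1-HHcy Pd7 replicate 2, F1-Control Pd3 replicate 3 or F1-Control Pd7 replicate 1. From Pd7 to Pd21 the test, added after the values were seen, gave a more positive difference in 8 members and a more negative one in 0, against 5.55% and 9.72% of genes. The number that grew more positive was 7 or 8 when any 1 library was left out. Mael (by 2.32, SE 0.519, adjusted p = 0.0153) and Mov10l1 (by 2.08, SE 0.444, adjusted p = 0.0112) also passed after adjustment, where 0.972% of genes did. The F1-Control libraries at Pd21 held only 0.736, 1.01 and 2.01 FPKM of Mov10l1 and 1.40, 1.00 and 2.62 FPKM of Piwil2. On the scale of log2(FPKM + 1), even total loss at Pd21 could not have matched the Pd7 difference of either gene. Part of the change in Mov10l1 and Piwil2 was therefore fixed in advance by the scale. From Pd3 to Pd21 the difference grew more positive in 4 members (Asz1, Piwil2, Pld6 and Tdrd1) and more negative in 0, against 4.00% and 9.04% of genes. Of these members 0 had an adjusted p under 0.05, where 0.815% of genes did. The number was 2 without F1-HHcy Pd3 replicate 1 and 7 without F1-HHcy Pd3 replicate 3, F1-HHcy Pd21 replicate 2 or F1-Control Pd21 replicate 3.

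Further genes of the pathway were also called lower at Pd3 and Pd7, with medians nearer to 0 than those of the members, a difference that was not tested. A list of 25 further piRNA and germ granule genes, of which 18 passed the filter at each day, had 8 lower and 0 higher at Pd3. Exd1, a partner in piRNA production, had the smallest p (4.99 ± 0.324 FPKM in F1-Control and 2.29 ± 0.606 in F1-HHcy, n = 3 each, log2 difference −0.88, SE 0.167, adjusted p = 0.0401). Stk31, a Tudor domain kinase-like protein, differed by −0.90 (SE 0.195, adjusted p = 0.0551), and Fkbp6, a chaperone partner of the pathway, by −1.51 (SE 0.381, adjusted p = 0.0755). The most abundant gene of the list, Gtsf1, a zinc finger protein that PIWI proteins need for silencing, went from 176 ± 7.05 to 117 ± 32.5 FPKM (−0.63, SE 0.204, adjusted p = 0.133). Prmt5, the arginine methyltransferase that marks PIWI proteins and is used by most cell types, lay at 31.9 ± 3.14 and 32.7 ± 2.71 FPKM. The list's median was −0.42 beside −0.03 over all genes.

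At Pd7, 8 of the 18 were lower and 1 was higher, and the list's median was −0.49. Gpat2, a mitochondrial protein of the pathway, went from 8.49 ± 1.47 to 2.24 ± 0.0670 FPKM (log2 difference −1.54, SE 0.161, adjusted p = 0.00138). Fkbp6 differed by −1.46 (SE 0.244, adjusted p = 0.00714) and Tex15, a nuclear partner of piRNA-guided silencing, by −0.72 (SE 0.160, adjusted p = 0.0214). Gtsf1 lay at 149 ± 65.4 FPKM in F1-Control and 65.9 ± 12.5 FPKM in F1-HHcy (−1.09, SE 0.284, adjusted p = 0.0372). The gene that was higher was Mov10, named here after its value was seen, the broadly used relative of Mov10l1, with 12.3 ± 2.46 FPKM in F1-Control and 18.7 ± 0.933 in F1-HHcy (0.59, SE 0.164, adjusted p = 0.0469). The pair Mov10l1 and Mov10 thus differed in direction. Prmt5 (−0.28, SE 0.188) and its cofactor Wdr77 (0.31, SE 0.144) did not meet the criterion. At Pd21, 0 of the 18 were called, with Gtsf1 at 0.28 (SE 0.160), Tdrd5 at 0.47 (SE 0.308), Wdr77 at −0.23 (SE 0.156) and Prmt5 at −0.14 (SE 0.124).

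Marker genes of ovarian cells moved alongside. Of 6 markers of primordial oocytes (Dazl, Figla, Nobox, Lhx8, Sohlh1 and Taf4b), 3 were lower at Pd3 (Dazl, Lhx8 and Sohlh1), 5 were lower and 1, Taf4b, higher at Pd7, and 0 were called at Pd21. Sohlh1, a transcription factor of early oocytes, differed by −2.66 at Pd7, and Figla, which switches on the genes of the zona pellucida, by −2.17. Their summed level lay between 319 and 344 FPKM in F1-Control and between 111 and 314 FPKM in F1-HHcy at Pd3, and between 150 and 284 against 65.5 and 91.7 FPKM at Pd7. Of 10 markers of growing oocytes, by contrast, 7 were higher and 0 lower at Pd3, and 5 were lower and 2 higher (Bmp15 and Oosp1) at Pd7. Their sum ran from 1123 to 1689 FPKM in F1-Control and from 2094 to 3120 in F1-HHcy at Pd3, and from 2524 to 4134 against 1597 to 2381 at Pd7. None of the markers in any of the lists described here was at 0 in every library of a group.

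Markers of other cells moved with the diet too. Granulosa markers were higher in 3 of 4 tested at Pd3 and 5 of 6 at Pd7, stroma markers in 5 of 5 at Pd3, and theca markers in 0 of 2 at Pd3 and 5 of 5 at Pd7. The summed granulosa level at Pd7 lay between 156 and 433 FPKM in F1-Control and between 447 and 778 in F1-HHcy, that of theca between 216 and 446 against 1130 and 1181, and that of stroma at Pd3 between 419 and 575 against 810 and 1070. At Pd7 the stroma markers had 1 of 5 lower (Dcn) and 0 higher, with a summed level of 925 to 1207 FPKM in F1-Control and 696 to 1091 in F1-HHcy. Erythroid markers were lower in 5 of 5 at both days, with a summed level of 3887 to 11109 FPKM in F1-Control and 778 to 1107 in F1-HHcy at Pd3, and leukocyte markers were lower in 2 of 4 at Pd3 and 3 of 4 at Pd7. Of the 4 markers of oviduct secretory cells, which include the general epithelial genes Epcam and Krt8, 1 was lower at Pd3, and 3 were lower (Epcam, Krt8 and Pax8, all with an adjusted p under 0.05) and 1 higher (Ovgp1) at Pd7. Their summed level at Pd7 was 97.0 to 177 FPKM in F1-Control and 45.0 to 58.8 in F1-HHcy. At Pd21, 11 of 11 multiciliated markers and 4 of 4 markers of oviduct secretory cells were lower in F1-HHcy, where the summed multiciliated level was 69.4 to 244 FPKM in F1-Control and 5.38 to 9.80 in F1-HHcy. The part of these cells in the members' values was not tested. When mitochondrial and hemoglobin genes were removed and the remaining values rescaled, 7 members were lower at Pd3 (Ddx4 being added, at −0.58), 8 at Pd7 and 0 at Pd21.

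The members' sum kept close to that of the primordial oocyte markers and far less close to that of the growing oocyte markers. Abundant members weigh most in this sum, since in F1-Control at Pd3 the mean was 84.3 FPKM for Mael and 2.55 for Henmt1. The sum therefore says little about members of low level. The 10 members together gave 275, 257 and 244 FPKM in F1-Control and 79.6, 143 and 231 FPKM in F1-HHcy at Pd3, and 158, 194 and 113 FPKM against 52.8, 48.1 and 57.4 FPKM at Pd7. Divided by the primordial marker sum of the same library, this was between 0.746 and 0.854 in F1-Control and between 0.716 and 0.756 in F1-HHcy at Pd3, and between 0.682 and 0.755 against 0.626 and 0.757 at Pd7. At Pd21 the ratio was 0.511, 0.507 and 0.739 in F1-Control and 0.572, 0.529 and 0.548 in F1-HHcy. Divided by the growing marker sum, the values at Pd3 were 0.145 to 0.245 in F1-Control and 0.0325 to 0.111 in F1-HHcy. At Pd7 they were 0.0377 to 0.0625 against 0.0241 to 0.0301.

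**Figure D4:**
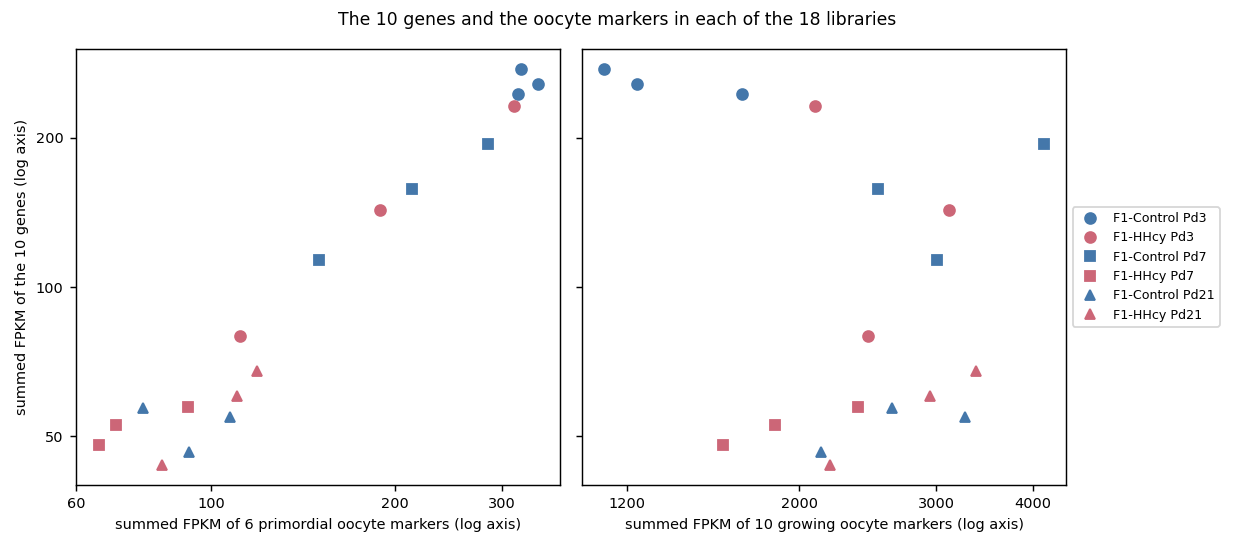
Summed FPKM of the 10 genes (vertical axis, log scale) against the summed FPKM of 6 primordial oocyte markers (left) and of 10 growing oocyte markers (right; horizontal axes, log scale) in the 18 libraries, with F1-Control in blue, F1-HHcy in red, circles for Pd3, squares for Pd7 and triangles for Pd21. On the left the points rise together, from 43.8 FPKM in F1-HHcy at Pd21 to 275 FPKM in F1-Control at Pd3, and on the right no such order is seen.

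To see which members differed from the mean of the primordial oocyte markers, this mean log2 level was subtracted from each library. The diets were then compared again. At Pd3, 0 of 10 members were called, where 35.6% of genes were called higher and 0.565% lower, with relative log2 differences between −0.57 (Piwil2, SE 0.410) and 0.57 (Henmt1, SE 0.434). Without F1-HHcy replicate 3, 1 was called lower and 2 higher. At Pd7, 91.6% of genes were called higher and 0.353% lower, since most genes did not share the lower level of the markers. Against that, Mov10l1 (−1.02, SE 0.330, adjusted p = 0.00274) and Mael (−0.95, SE 0.281, adjusted p = 0.00117) were lower than the markers' mean change. Henmt1 (1.52, SE 0.337, adjusted p = 2.6e-05) and Asz1 (0.76, SE 0.324, adjusted p = 0.0217) were higher. Without F1-HHcy replicate 1 (0.70), F1-HHcy replicate 2 (0.80) or F1-Control replicate 1 (0.74), Asz1 was no longer called. The other 6 were not called, with Ddx4 at 0.01 (SE 0.314), Tdrd1 at 0.26, Tdrd9 at −0.29, Tdrkh at 0.48, Piwil2 at −0.60 and Pld6 at 0.49. For Ddx4, 2 SE on either side reached from −0.62 to 0.63, wider than the size limit of 0.58, and the markers themselves went both ways at Pd7, from −2.66 (Sohlh1) to 0.60 (Taf4b). Against their own mean, 2 of the 6 markers were called lower and 1 higher, with relative differences from −1.50 to 1.77. The called members lay inside that range, so these calls do not set them apart from single markers.

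At Pd21, 0 of the 10 were called relative to the markers, where 7.15% of genes were called lower and 0.0974% higher. The marker mean enters every gene in these fits, so its error was shared, and limma's prior degrees of freedom were unbounded at Pd3 and Pd7. With the spread of each gene alone, added after the values were seen, the same 4 members were called at Pd7 together with Piwil2, which was lower. The choice of marker decided these relative calls: with growing oocyte markers subtracted, 10 of 10 members were lower at Pd3 and 6 lower and 0 higher at Pd7.

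**Figure D5:**
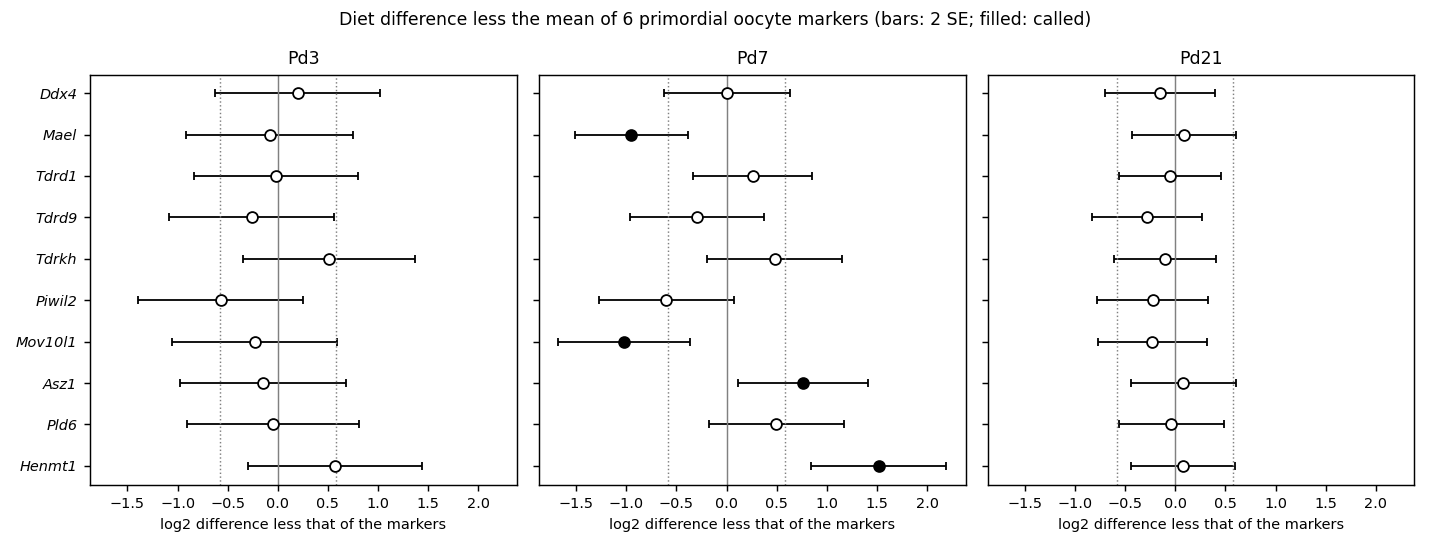
Log2 difference of F1-HHcy minus F1-Control for each of the 10 genes after the mean of 6 primordial oocyte markers was subtracted in each library (horizontal axis), at Pd3, Pd7 and Pd21, with bars of 2 SE on either side and filled points for genes called. At Pd7, Mov10l1 (−1.02) and Mael (−0.95) stand below 0 and Henmt1 (1.52) and Asz1 (0.76) above it.

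As a description over the 18 libraries, which share the days and diets, the pattern of Ddx4 was most like that of Smc1b, a meiotic cohesin (Pearson's r = 0.983 on log2(FPKM + 1)), among 13430 genes with a mean of at least 1 FPKM. Sohlh1, a transcription factor of primordial oocytes (0.977), Crabp1 (0.977), Adad2 (0.976) and Syce1, a synaptonemal complex protein (0.974), came next outside the members. Among the members, r with Ddx4 was 0.979 for Tdrd9, 0.972 for Mov10l1, 0.968 for Piwil2, 0.952 for Mael, 0.922 for Pld6, 0.907 for Tdrkh, 0.882 for Tdrd1, 0.735 for Asz1 and −0.757 for Henmt1. The 18 libraries include those of Pd7, so these values are not independent of the diet differences given for that day.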

How the data were processed

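Polyadenylated RNA of whole mouse ovary was sequenced by the authors from stranded libraries (3 per diet and day). The submitters' processing notes name FastQC 0.11.9, Trimmomatic 0.39, STAR 2.7.9a, featureCounts 2.0.1, DESeq2 1.36.0 and GRCm38 (mm10). The authors deposited 1 value per gene and library for 30172 genes, read here as FPKM, because a length per gene turned them into whole fragments (tolerance 0.02) for 100% of the 27294 genes above 0 in 3 or more libraries. All deposited columns belonged to a sample.

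Diets were compared per day with limma 3.58.1 in R 4.3.3, with a variance trend on log2(FPKM + 1), keeping a gene that reached 1 FPKM in 3 or more libraries of the fit. Adjusted p-values are by Benjamini-Hochberg over all genes tested. Age and interaction were fitted on the 12 libraries of Pd3 and Pd7, and differences with Pd21 on all 18. All 10 members were named in each comparison, and of the 25 further pathway genes the 3 most abundant and the 3 of smallest p. The members and lists were chosen with earlier results of these data known. On simulated data, 199, 197 and 192 of 200 genes changed by 1.5 (log2) were recovered at Pd3, Pd7 and Pd21 among 13277, 13299 and 13350 genes. Of the unchanged genes, 1.25%, 1.39% and 2.05% were called. The changed genes were drawn from those with an F1-Control mean above 1.5 on the scale of log2(FPKM + 1). Changes of smaller size or in lower genes were not simulated. Alternatives were another pseudocount, no filter, 1 model of 18 libraries, a replicate block, median-ratio scaling, removal of mitochondrial and hemoglobin genes, limma-voom on recovered fragments, and each library left out. Sequences and positions are from RefSeq (GRCm38.p6), exon overlaps from GENCODE vM21, and the plots used Python 3.11.15, pandas 2.3.3 and matplotlib 3.10.9.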

Additional observations from a re-analysis of the deposited data

Results flagged for a closer look

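For 3 members the diet difference was more negative at Pd7 than at Pd3 by the test of the difference itself (unadjusted limma p under 0.05 and a size above 0.58). The change was −0.59 for Ddx4, −1.27 for Mael and −1.19 for Mov10l1 on the log2 scale, none with an adjusted p under 0.05.

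The difference between F1-HHcy and F1-Control was more positive at Pd21 than at Pd7 in 8 members, by 1.13 for Ddx4, 2.32 for Mael, 2.08 for Mov10l1, 1.66 for Piwil2, 0.75 for Pld6, 0.97 for Tdrd1, 1.30 for Tdrd9 and 0.70 for Tdrkh. It was more positive at Pd21 than at Pd3 in 4 members, by 1.11 for Asz1, 1.23 for Piwil2, 0.89 for Pld6 and 0.85 for Tdrd1. Age and batch cannot be told apart in these comparisons with Pd21, which were chosen after seeing the data. For Mov10l1 and Piwil2, part of the change from Pd7 was fixed in advance. Their F1-Control levels at Pd21 were too low for a difference of the Pd7 size on the scale of log2(FPKM + 1).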

How the results depend on the processing

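Of 102 counts of called members under alternatives that kept all libraries, 97 stayed within 1.5 times the value reported. The exceptions were the members lower at Pd3, 0 by adjusted p; those relative to primordial markers with growing oocyte markers subtracted (10 lower at Pd3, 6 lower and 0 higher at Pd7); and those higher relative to markers at Pd7, 1 with a replicate block. With growing markers subtracted, the relative difference changed sign for Henmt1 at Pd3 (−1.60) and at Pd7 for Ddx4 (−0.86), Tdrd1 (−0.61), Tdrkh (−0.38), Asz1 (−0.11) and Pld6 (−0.37), by the construction of that alternative. Ddx4 relative to markers at Pd7 was −0.054 with a pseudocount of 0.1. Ddx4 at Pd21 was 0.020 with median-ratio scaling and 0.039 with limma-voom.

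Replicate numbers did not pair the libraries: deviations of same-numbered libraries correlated between −0.314 and 0.0851. The replicate block left the counts of members called for the diets at 6, 8 and 0 over the 3 days, and ended the calls of Asz1 relative to markers at Pd7 and of Mael in the test of Pd7 against Pd3; the cause was not tested.

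Leaving out 1 library at a time, the count of members lower ran from 3 to 8 at Pd3, and higher at Pd7 from 0 to 1. Relative to markers, it ran from 0 to 1 lower and 0 to 2 higher at Pd3, and from 1 to 2 higher at Pd7. In F1-HHcy, 0 to 1 members were higher at Pd7 than at Pd3. The diet difference grew more negative from Pd3 to Pd7 in 0 to 6 members, more positive in 0 to 1, and more positive from Pd3 to Pd21 in 2 to 7. Signs turned, none in a called value, for Henmt1 at Pd3 (−0.40 to 0.18) and between Pd3 and Pd7 in F1-Control (−0.20 to 0.090), for Ddx4 relative to markers at Pd7 (−0.068 to 0.074), and at Pd21 for Ddx4 (−0.30 to 0.19), Mael (−0.0048 to 0.44), Tdrd1 (−0.028 to 0.22), Tdrd9 (−0.39 to 0.042), Tdrkh (−0.084 to 0.17), Piwil2 (−0.31 to 0.14), Mov10l1 (−0.27 to 0.12) and Pld6 (−0.040 to 0.17). Each member had 80 or more fragments in each library, so none was at the edge of detection.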
